A study of Zea mays with 32 samples.

Results

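The benzoxazinoid pathway genes bx1 to bx8 of maize were followed along the primary root of the inbred line B73. They are 8 of the 39510 gene identifiers in the table of counts, and all 8 were in the table. They were chosen by identifier from the known pathway, with earlier results of these data known. The material was wild type root tissue of plantlets at 7 days after germination, kept at 26 °C on paper for germination, with days of 12 h light and 12 h dark. Both roots, A and B, were pinned side by side and cut by hand from the tip backwards into 16 slices, and each slice of each root gave 1 RNA-seq library, 32 in all (n = 2 per slice). The profile shows in which slices, numbered from the tip, counts of each gene were found. All slices share genotype, age and treatment, so position along the root is what differs between the groups, and no slice is assigned to a developmental zone by the labels. Only 2 roots, cut side by side, stand behind each p-value, and neighbouring slices come from the same root and so depend on each other.

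Benzoxazinoids are defence compounds of grasses, and in maize the main ones are glucosides that are stored in the vacuole and split by a glucosidase when tissue is damaged. The enzyme BX1 splits indole-3-glycerol phosphate and so draws indole away from tryptophan synthesis. The cytochrome P450 enzymes BX2, BX3, BX4 and BX5 then add oxygen step by step to form the benzoxazinoid ring. BX8 is a UDP-glucosyltransferase that makes the stable glucoside, BX6 is a dioxygenase that hydroxylates the glucoside, and BX7 is an O-methyltransferase that adds the methyl group of DIMBOA-glucoside. Young maize seedlings, roots included, are known for high benzoxazinoid content. The genes lie in a cluster: in the RefSeq annotation of Zm-B73-REFERENCE-NAM-5.0 all 8 are on the same chromosome, in the order bx6, bx3, bx4, bx5, bx8, bx1, bx2, bx7. That assembly is not known to be the one used for the counts, so only this order is taken from it.

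The libraries held 1008082 to 5681180 counts (median 1860465), so 3 counts, the limit that a count of 0 allows, stood for 0.652 to 3.59 counts per 1000000 counts (CPM, scaled between libraries by the TMM method) depending on the library. Slice 8 of root A stood apart, with 8303 genes detected against at least 13804 elsewhere. The pair of slice 7 was more alike than the pair of any other slice, with a chi-square per degree of freedom of 1.41 between them against 5.17 to 57.4 in the other slices. They were kept as separate libraries and counted as 1 in an alternative. The tissue label could not be checked against root marker genes, because the table gives identifiers and no names. Values are not divided by transcript length, so levels are compared within a gene and not between genes.

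The genes of the entry steps, bx1 and bx2, were at or next to 0 along the whole root. Identifier Zm00001d048709, bx1, the indole-forming lyase, held 2 counts in all 32 libraries together, 1 in slice 8 of root A and 1 in slice 11 of root B. Pooled over 72642582 counts this is a level of 0.0281 CPM, with a 95% Poisson interval of 0.0034 to 0.101 CPM. Identifier Zm00001d048710, bx2, the P450 enzyme of the second step, held 0 counts, which allows a pooled level of up to 0.0421 CPM. At this depth bx2 was thus detected at no position and bx1 by a single count at each of 2 positions, not shared between the roots, while bx8, their neighbour in the order given above, had counts in all 32 libraries. Zm00001d048704, the identifier numbered between bx4 and bx5 and the only other one in the table with a number between those of bx3 and bx2, also held 0 counts. Whether the counting assigned reads of bx1 or bx2 to other entries was not tested, and near-identical genes can share reads. Intervals and limits from counts cover counting error only, since the reads were amplified and carry no molecular identifiers. In slices of whole tissue, fewer cells of a type and less RNA per cell cannot be told apart.

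**Figure D1:**
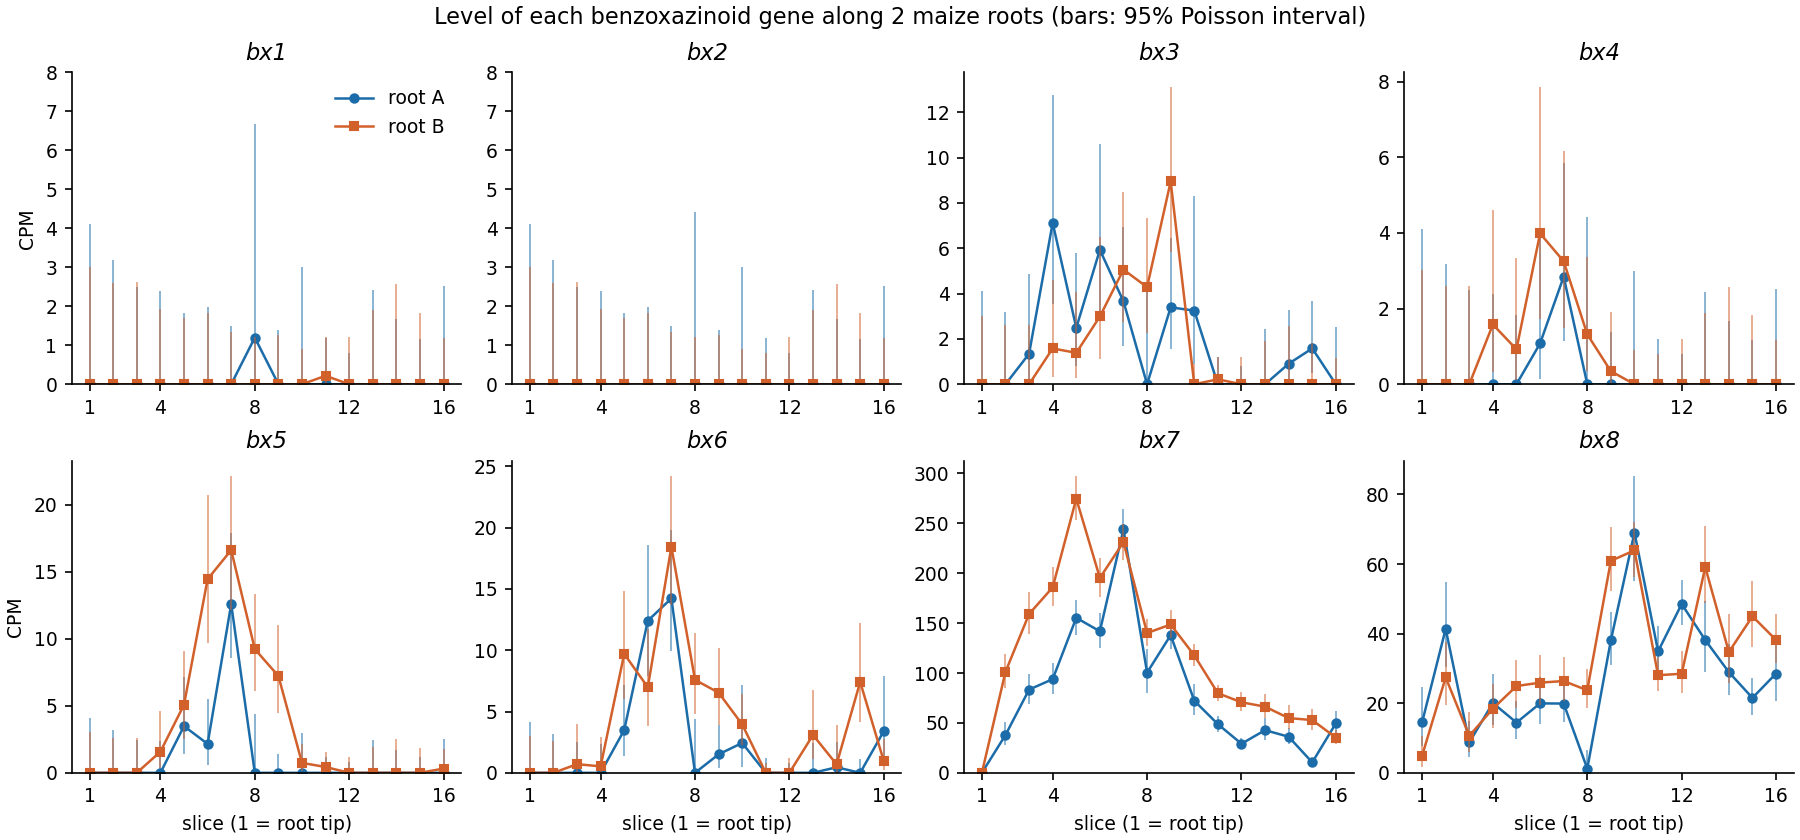
Level of each gene in CPM (vertical axes, scales differ between genes) by slice from the tip (horizontal axes), with root A as circles, root B as squares and 95% Poisson intervals as vertical lines. The points of bx1 and bx2 lie at or next to 0, bx3 to bx6 have their highest values between slices 4 and 9, bx7 is at 0 in slice 1 and highest in slices 5 and 7, and bx8 is highest in slice 10 of both roots.

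The later P450 genes bx3, bx4 and bx5 were detected mainly in slices 4 to 9. For bx3 (Zm00001d048702) the levels in root A were 1.35 CPM in slice 3, 7.12 in slice 4, 2.49 in slice 5, 5.93 in slice 6, 3.66 in slice 7, 3.39 in slice 9 and 3.25 in slice 10, then 0.904 in slice 14 and 1.58 in slice 15, and 0 elsewhere. In root B bx3 stood at 1.58 CPM in slice 4, 1.39 in slice 5, 2.99 in slice 6, 5.06 in slice 7, 4.29 in slice 8, 8.95 in slice 9 and 0.217 in slice 11, and at 0 elsewhere. The highest value was in slice 4 in root A and in slice 9 in root B, and both roots were at 0 in slices 1, 2, 12, 13 and 16. In root A slices 4 and 6 held 11 counts each, with overlapping counting intervals (3.55 to 12.7 and 2.96 to 10.6 CPM). Its highest slice is thus not resolved, nor is a difference in place between the roots. The level of bx3 was called as varying between slices (edgeR joint test, adjusted p = 0.0142), where 60.9% of all genes tested were called. This call was lost without slice 9 of root B (adjusted p = 0.055), with an older dispersion step of edgeR (adjusted p = 0.0506) and in DESeq2 (adjusted p = 0.269). As bx3 entered the tests through slices where it is high, the call is no independent support for its profile.

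For bx4 (Zm00001d048703), the P450 gene of the step after bx3, there were 36 counts in 8 libraries. Root A had 1.08 CPM in slice 6 and 2.84 CPM in slice 7. Root B had 1.58 CPM in slice 4, 0.924 in slice 5, 3.99 in slice 6, 3.25 in slice 7, 1.32 in slice 8 and 0.344 in slice 9. Every count of bx4 thus lay in slices 4 to 9, and in root A in slices 6 and 7. There were 32 counts in slices 5 to 8. Their level was 6.88 times that of slices 1 to 4, which held 3 counts (95% counting interval 2.15 to 35.1), and 48.9 times that of slices 9 to 12, which held 1 count (8.17 to 1992). The gene did not pass the filter on low counts and was not tested, so these ratios carry no replicate error.

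The last P450 gene, bx5 (Zm00001d048705), was detected in 3 neighbouring slices of root A and in 9 slices of root B. In root A it was at 3.49 CPM in slice 5, 2.16 in slice 6 and 12.6 in slice 7, and at 0 in the other 13 slices. In root B it was at 1.58 CPM in slice 4, 5.08 in slice 5, 14.5 in slice 6, 16.6 in slice 7, 9.23 in slice 8, 7.23 in slice 9, 0.74 in slice 10, 0.435 in slice 11 and 0.318 in slice 16. Both roots were highest in slice 7, but the 2 libraries of that slice were more alike than those of any other. Whether they count as independent was not tested. Root B kept counts through slices 8 and 9, where root A had none, and slice 8 of root A is the library with few detected genes. The level of bx5 was called as varying between slices by edgeR (joint test, adjusted p = 0.00036) and not by DESeq2 (adjusted p = 0.236). Since bx5 entered the tests through slices where it is high, the call describes that profile and is no independent support for it. Of all genes tested 60.9% were called.

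The dioxygenase gene bx6 (Zm00001d048634), whose enzyme works on the glucoside, was also highest in the middle and was detected again at the back. In root A it was at 3.49 CPM in slice 5, 12.4 in slice 6, 14.2 in slice 7, 1.51 in slice 9, 2.44 in slice 10, 0.452 in slice 14 and 3.4 in slice 16, and at 0 elsewhere. In root B it was at 0.708 CPM in slice 3, 0.527 in slice 4, 9.7 in slice 5, 6.98 in slice 6, 18.4 in slice 7, 7.58 in slice 8, 6.54 in slice 9 and 3.95 in slice 10, then at 3.08 in slice 13, 0.694 in slice 14, 7.41 in slice 15 and 0.954 in slice 16. Both roots were highest in slice 7, with the same limit on the likeness of its 2 libraries as for bx5. The 0 in slice 8 of root A is in the library with few detected genes. In slices 11 and 12 the 4 libraries held 0 counts of bx6 among 16902385, which allows up to 0.195 CPM. The level of bx6 was called as varying between slices (edgeR joint test, adjusted p = 0.000502), where 60.9% of all genes tested were called. This gene too entered the tests through slices where it is high, so the call is no independent support for its profile.

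The genes bx3, bx4, bx5 and bx6 were detected together in 8 of the 32 libraries, all of them between slices 4 and 9. Their totals, 1573593 to 2943884 counts, were below those of the deepest libraries farther back. They were above those of slices 1 to 3 of both roots and slice 4 of root A, at 1008082 to 1312528 counts. The part of this low depth in the few counts at the front was not tested. In 9 libraries none of these 4 genes had a count: slices 1, 2 and 12 of both roots and slices 8, 11 and 13 of root A. Slice 8 of root A is the library with few detected genes, and slice 7 of the same root held 9 counts of bx3, 31 of bx5 and 35 of bx6. The part of that library's low gene number in its zeros was not tested.

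The O-methyltransferase gene bx7 (Zm00001d049179) had no count in slice 1 of either root and a broad maximum in slices 5 to 7. In root A its levels were 37.9 CPM in slice 2, 83.4 in slice 3, 93.9 in slice 4, 155 in slice 5, 142 in slice 6, 244 in slice 7, 100.4 in slice 8 and 138 in slice 9. In root B the same slices gave 101, 159, 186, 275, 195, 231, 140.1 and 149 CPM. Farther back, slices 10 to 16 gave 72.3, 48.8, 29.1, 42.8, 36.2, 10.4 and 49.6 CPM in root A and 118, 79.8, 70.7, 66.3, 54.9, 52.9 and 35.3 CPM in root B. Every slice behind the tip carried the gene, and in each root all slices from 10 to 16 lay below slices 5, 6 and 7. The highest slice was slice 7 in root A and slice 5 in root B.

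At the tip bx7 was not detected. Slice 1 held 0 counts among 2192038 in both libraries together, against 1035 counts in slices 2 to 4, so the tip was at least 82.0-fold lower when 3 counts over the libraries of slice 1 are taken as the limit. The difference passed the test (edgeR, adjusted p = 7.37e-06, direction the same in both roots) and stayed called in each of the 32 fits that left out 1 library. Of all genes tested, 12.5% were called lower in slice 1. In the same library of slice 1 of root A 13804 genes were detected, the second lowest number of the set, and in slice 1 of root B 17713; bx8 had 13 and 6 counts in them.

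The glucosyltransferase gene bx8 (Zm00001d048707) was detected in all 32 libraries and had its maximum farther back than the other genes. In root A slices 1 to 8 gave 14.5, 41.4, 8.74, 20.1, 14.4, 19.95, 19.9 and 1.2 CPM, and slices 9 to 16 gave 38.1, 69, 34.9, 48.5, 38.2, 28.9, 21.5 and 28.5 CPM. In root B slices 1 to 8 gave 4.9, 27.4, 10.6, 18.4, 24.9, 25.9, 26.4 and 23.7 CPM, and slices 9 to 16 gave 60.9, 63.9, 28, 28.5, 59.1, 34.7, 45 and 38.2 CPM. Slice 10 was the highest in both roots, and both had a smaller local high in slice 2. In root B every slice from 9 to 16 was above every slice from 1 to 8, while in root A slice 2 reached the range of the back. The lowest value, 1 count in slice 8 of root A, is in the library with few detected genes, beside 72 counts in slice 8 of root B. The level of bx8 depended on slice (edgeR joint test, adjusted p = 0.0213), a call lost with DESeq2's size factors (adjusted p = 0.056), with library totals only (adjusted p = 0.0966), with an older dispersion step (adjusted p = 0.107) and without slice 3 of root A or either library of slice 10 (adjusted p up to 0.0561).

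Tests across all genes were possible for 5 of the 8 genes: bx3, bx5, bx6, bx7 and bx8 passed the filter on low counts, and bx1, bx2 and bx4 did not. Of the 19587 genes tested, 60.9% varied between slices at an adjusted p under 0.05, and all 5 of these did. For bx3, bx5 and bx6 the filter was met through the middle slices, where they are high, so their number is no support. The smallest adjusted p was that of bx7 (edgeR joint test, adjusted p = 8e-06). Slices were then compared in blocks of 4, a split by slice number. A comparison of means of slice coefficients cannot be estimated where slices with no count stand on both sides, and where they stand on 1 side the fitted fold depends on a prior count and is no bound. For those genes the ratio of counts and another fit with the 4 blocks as groups are given. This fit takes the 4 neighbouring slices of each root as replicates. Its p-values, like an SD over the 8 libraries of a block, thus mix change within a block with differences between the roots. In that fit 12.5% of all genes were called in slices 5 to 8 against 1 to 4, 41.5% in slices 9 to 12 against 5 to 8, 15% in slices 13 to 16 against 9 to 12 and 53.5% in slices 13 to 16 against 1 to 4.

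In slices 5 to 8 against slices 1 to 4, bx5, bx6 and bx7 were called higher. Since bx5 and bx6 entered the tests through the middle slices, where they are high, their calls here describe that profile and are no independent support for it. Over all genes tested 6.42% were called higher in slices 5 to 8. For bx5 the mean level was 0.197 ± 0.558 CPM in slices 1 to 4 and 7.95 ± 6.16 CPM in slices 5 to 8 (mean ± SD, n = 8), or 3 against 156 counts, a level 33.5 times as high (counting interval 11.3 to 164; edgeR, adjusted p = 0.00173; with blocks as groups log2 change 4.72 ± 1.15 SE, adjusted p = 0.00444). DESeq2 gave an adjusted p of 0.0596 for it. For bx6 the mean was 0.154 ± 0.29 and 9.1 ± 5.92 CPM, or 2 against 174 counts, a level 56.1 times as high (counting interval 15.3 to 467; edgeR, adjusted p = 0.000535; with blocks as groups 5.35 ± 1.11, adjusted p = 0.000763). The mean of bx7 was 82.7 ± 68.3 CPM in slices 1 to 4 and 185 ± 60.6 CPM in slices 5 to 8 (edgeR, adjusted p = 2.65e-05). Slice 1 held no count of bx7, so the fitted fold behind this p depends on a prior count. Slices 2 to 4 alone had a mean of 110 ± 53.7 CPM (SD, n = 6). The call was lost with blocks as groups (log2 change 1.15 ± 0.49, adjusted p = 0.128). It was also lost in each root alone, with blocks as groups (edgeR, adjusted p = 0.314 in root A and 0.556 in root B). Without slice 8 of root B, slice 8 had no count of bx5 or bx6, neither could be estimated, and 1 of the 3 calls, that of bx7, was left. No call was made for bx3 (adjusted p = 0.114) or for bx8, whose means were 18.3 ± 11.7 and 19.6 ± 8.42 CPM (log2 change 0.37 ± 0.36 SE, adjusted p = 0.645).

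In slices 9 to 12 against slices 5 to 8, bx3, bx5, bx6 and bx7 were called lower and bx8 was called higher. The same limit holds for bx3, bx5 and bx6, which entered the tests through slices where they are high. Over all genes tested, 21.1% were called lower and 22% higher in this comparison. The mean of bx5 was 1.05 ± 2.51 CPM in slices 9 to 12 (SD, n = 8), or 26 counts against 156 in slices 5 to 8 (edgeR, adjusted p = 0.000115; with blocks as groups −2.98 ± 0.76, adjusted p = 0.00192), and all 26 counts were of root B. For bx6 the mean was 1.8 ± 2.41 CPM, 42 counts against 174 (edgeR, adjusted p = 6.54e-05; with blocks as groups −2.48 ± 0.65, adjusted p = 0.0022). For bx3 it was 1.98 ± 3.18 against 3.22 ± 1.94 CPM (edgeR, adjusted p = 0.0118), a call lost with blocks as groups (log2 change −1.02 ± 0.73, adjusted p = 0.264) and in DESeq2 (adjusted p = 0.0967). Levels of bx7 went from 185 ± 60.6 to 88.1 ± 42.6 CPM (log2 change −1.14 ± 0.3 SE, edgeR, adjusted p = 0.00253). That call was lost with blocks as groups (−1.08 ± 0.49, adjusted p = 0.0719). It was also lost in each root alone, with blocks as groups (edgeR, adjusted p = 0.192 in root A and 0.207 in root B).

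The level of bx8 went the opposite way, from 19.6 ± 8.42 to 46.5 ± 16.5 CPM (log2 change 1.15 ± 0.32 SE; edgeR, adjusted p = 0.00359; with blocks as groups 1.19 ± 0.35, adjusted p = 0.00568). All 8 libraries of slices 9 to 12 were above all 8 libraries of slices 5 to 8. Without slice 8 of root B 2 of the 5 calls in this comparison were left, since bx3, bx5 and bx6 could not be estimated. The size of the change of bx8 depended on slice 8: without its root A library the log2 change was 0.91 and without its root B library 2.06, and the call stayed in each of the 32 fits that left out 1 library. It was lost in each root alone, with blocks as groups: the log2 change was 1.62 in root A (edgeR, adjusted p = 0.0558) and 0.78 in root B (adjusted p = 0.151). Relative to TMM scaling, DESeq2's size factors shifted the median change of all genes by −0.24 (log2) in slices 5 to 8 against 1 to 4, by −0.147 in slices 9 to 12 against 5 to 8 and by 0.194 in slices 13 to 16 against 9 to 12. Library totals alone shifted it by −0.382 in slices 13 to 16 against 1 to 4. Of all genes called in slices 5 to 8 against 1 to 4, 66% were higher with TMM and 43% with DESeq2's size factors. Of those called in slices 13 to 16 against 9 to 12 it was 61.2% and 74.9%, and with library totals the share went from 57.8% to 44.4% in slices 13 to 16 against 1 to 4, from 51% to 40.7% in slices 9 to 12 against 5 to 8, from 54.7% to 43.2% in slice 1 against 2 to 4 and from 54.5% to 65.9% between the roots.

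**Figure D2:**
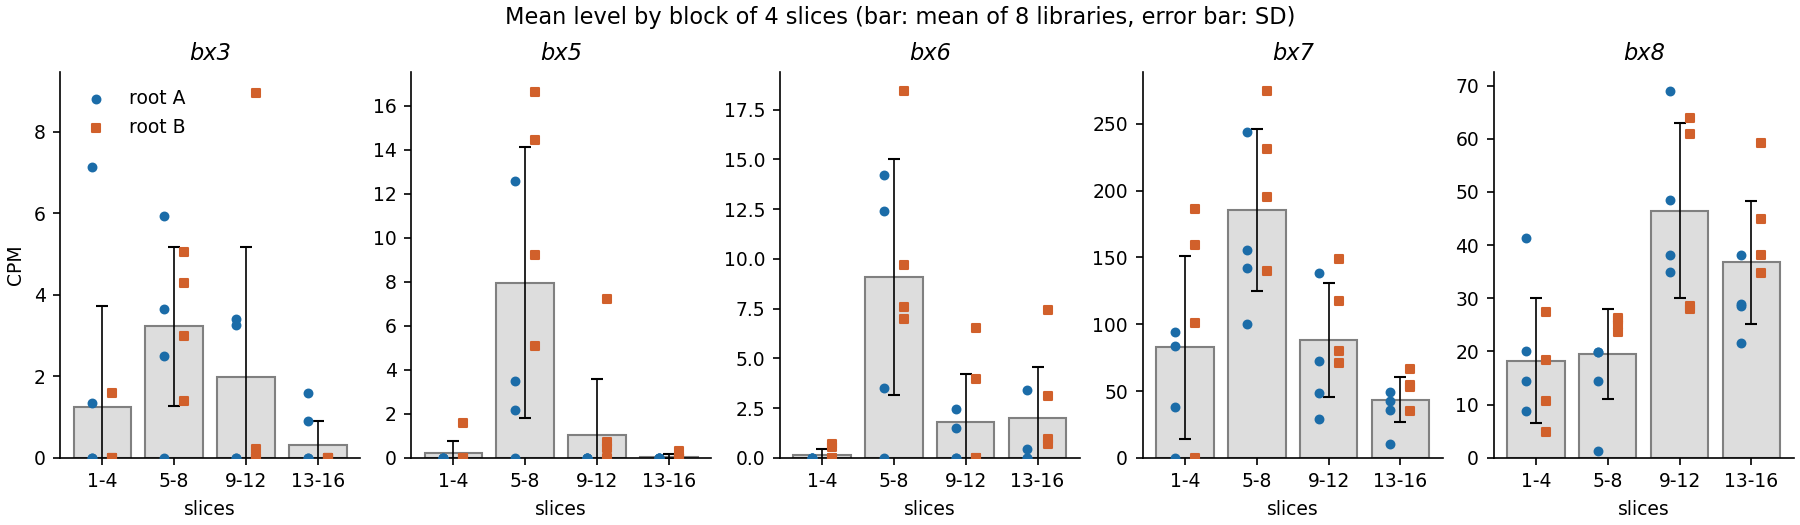
Level in CPM (vertical axes, scales differ) of the 5 genes that could be tested, by block of 4 slices (horizontal axes). Bars are means of 8 libraries with the SD, circles are libraries of root A and squares those of root B; bx5, bx6 and bx7 are highest in slices 5 to 8 and bx8 in slices 9 to 12, at 46.5 CPM.

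From slices 9 to 12 to slices 13 to 16, bx7 fell further, from 88.1 ± 42.6 to 43.5 ± 16.9 CPM (SD, n = 8; log2 change −0.94 ± 0.31 SE, edgeR, adjusted p = 0.0291), where 7.6% of all genes tested were called lower. This call was lost with DESeq2's size factors (adjusted p = 0.0916), in DESeq2 (0.106), with the older dispersion step (0.0602) and with blocks as groups (0.167), and without any of 7 single libraries, namely slices 10, 11, 12 or 16 of root B and slices 13, 14 or 15 of root A. The mean of bx8 was 36.8 ± 11.6 CPM at the back (adjusted p = 0.556 against slices 9 to 12) and that of bx6 was 2 ± 2.55 CPM (adjusted p = 0.286). In slices 13 to 16 bx3 held 7 counts, all of root A, bx5 held 1 count and bx4 held 0.

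Between the ends of the profile bx8 was higher in slices 13 to 16 than in slices 1 to 4, with 36.8 ± 11.6 against 18.3 ± 11.7 CPM (log2 change 1.21 ± 0.35 SE, edgeR, adjusted p = 0.00481), where 27.9% of all genes tested were called higher. With library totals as the scaling, the adjusted p was 0.0582. In root A the mean went from 21.2 to 29.3 CPM and in root B from 15.3 to 44.2 CPM. For bx8 in slices 13 to 16 against slices 1 to 4, fitted in each root alone with blocks as groups, the log2 change was 0.36 in root A (edgeR, adjusted p = 0.688) and 1.46 in root B (adjusted p = 0.0104). In these fits the 4 neighbouring slices of 1 root stand in as replicates, so each p reflects the spread within that root only. For bx7 the direction depended on slice 1: as a mean of slice coefficients the change was 1.39 ± 0.87 (adjusted p = 0.192), with blocks as groups −0.95 ± 0.5 (adjusted p = 0.105), and with slice 1 left out of the front, a comparison added after the values were seen, −1.33 ± 0.33 (edgeR, adjusted p = 0.00115). In that comparison, slices 13 to 16 against slices 2 to 4, 27.6% of all genes tested were called lower and 28.3% higher, and bx8 was called higher (0.96 ± 0.37, adjusted p = 0.0278).

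The levels of bx7 and bx8 can also be compared within each library, as the ratio of their counts, which no scaling between libraries touches. This ratio was not a planned comparison. It restates the counts given above as a description, with no test. From slices 9 to 12 to slices 13 to 16 the mean of bx8 did not rise (46.5 and 36.8 CPM), while that of bx7 was lower (88.1 and 43.5 CPM). The size of the ratio depends on transcript length, and its change along the root does not. In slices 5, 6 and 7 there were 0.0929, 0.141 and 0.0815 counts of bx8 per count of bx7 in root A and 0.0908, 0.133 and 0.114 in root B. In slices 9 to 12 the ratio was 0.276, 0.955, 0.715 and 1.66 in root A and 0.41, 0.543, 0.351 and 0.403 in root B, and in slices 13 to 16 it was 0.892, 0.8, 2.06 and 0.575 in root A and 0.891, 0.633, 0.85 and 1.08 in root B. Every library from slice 9 on was thus above every library of slices 3 to 8 in both roots. The nearest were slice 9 and slice 4 of root A, at 0.276 and 0.214, with overlapping counting intervals (0.219 to 0.345 and 0.14 to 0.317). Slice 2 was also above every library of slices 3 to 8, at 1.09 in root A (48 counts of bx8, 44 of bx7) and 0.271 in root B. Slice 1 had bx8 counts and none of bx7, so only lower limits can be given, 3.05 in root A and 1.18 in root B. The ratio was thus lowest in slices 3 to 8 and higher on both sides.

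**Figure D3:**
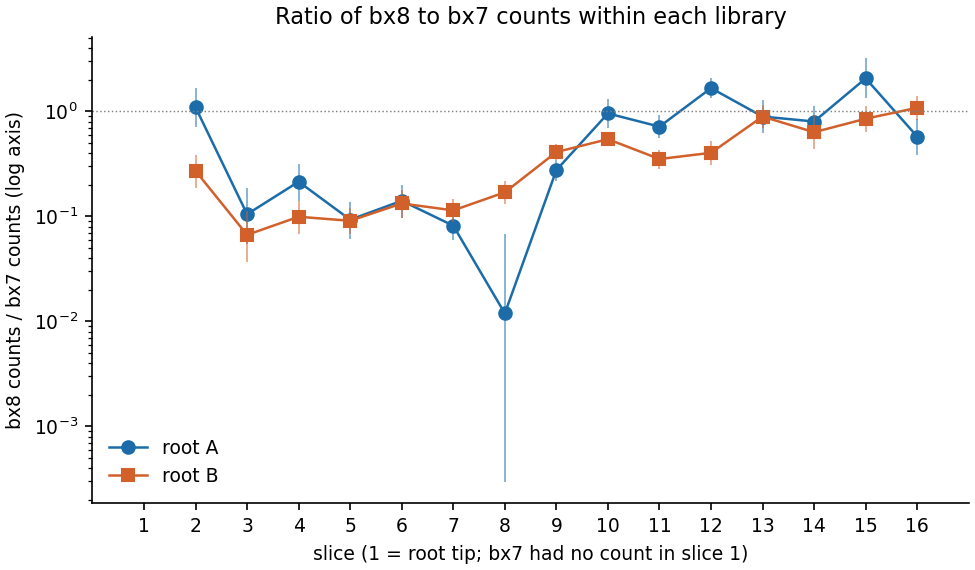
Counts of bx8 divided by counts of bx7 in each library (vertical axis, log scale) by slice (horizontal axis), with root A as circles, root B as squares and 95% counting intervals as vertical lines; slice 1 has no bx7 count and is not drawn. The ratio is 0.0815 to 0.141 in slices 5 to 7 of both roots and at least 0.276 from slice 9 on. In slice 2 it is 1.09 in root A and 0.271 in root B.

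The roots differed in the level of bx7. It was higher in root B in 13 slices, higher in root A in slices 7 and 16, and at 0 in both in slice 1, with means over the 16 slices of 80.3 CPM in root A and 119.6 CPM in root B (log2 difference 0.7 ± 0.19 SE, edgeR with slice in the model, adjusted p = 0.0125). Of all genes tested, 10% were called in this comparison and 5.46% were called higher in root B. Each side is 1 root, so the p compares these roots and no wider population. The other genes were not called, with adjusted p of 0.0621 for bx5 (higher in root B, 144 against 42 counts), 0.23 for bx6, 0.593 for bx8 and 0.83 for bx3. The difference of bx5 was called with library totals as the scaling (adjusted p = 0.0483), without the filter on low counts (0.0403) and without either library of slice 7 (down to 0.0285). A root difference in the front to back change could be tested for bx7 (−0.42 ± 1 SE) and bx8 (1.04 ± 0.73), and edgeR called neither (adjusted p of 1 and 0.895; 0 of the 2 at an unadjusted p under 0.05, 0 in DESeq2), where 0.0306% of all genes tested were called.

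Along the root the middle genes of the pathway resembled each other more than they resembled bx8. Over the 16 slices of a root, the Pearson correlation of log2 CPM between bx5 and bx6 came to 0.802 in root A and to 0.758 in root B, and between bx3 and bx5 it was 0.466 and 0.928. Of bx7 with bx3, bx5 and bx6 it was 0.464 to 0.52 in root A and 0.456 to 0.502 in root B. Between bx8 and each of bx3, bx5 and bx6 it ran from −0.11 to 0.0992 in root A and from 0.0869 to 0.389 in root B, and between bx7 and bx8 it was −0.0629 and 0.487. By rank, the last pair gave −0.4 (root A) and −0.324 (root B). These values are descriptions over slices that share a root, their library depth and, for bx3, bx5 and bx6, many slices at 0.

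The position of bx3 to bx8 can also be given as the mean slice number weighted by its level. For bx3 it came to slice 6.93 (root A) and 7.51 (root B), and in the same order the others were at 6.73 and 6.25 for bx4, 6.5 and 7.02 for bx5, 7.65 and 8.4 for bx6, 7.56 and 7.28 for bx7, and 9.43 and 9.98 for bx8. Of these 6 genes bx8 lay farthest back in both roots. Slices 5 to 8 held 100% of the summed level of bx5 in root A and 81.5% in root B, 79.4% and 64.1% for bx6, 49.98% and 43.96% for bx7, and 12.4% and 19.4% for bx8.

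Among the other genes of the table, 11945 with a mean of at least 10 CPM were ranked by how closely they followed the mean profile of the 8 genes, using the lower of the correlations in the 2 roots over 16 slices. The 5 closest were Zm00001d048201 (0.82), Zm00001d049666 (0.812), Zm00001d031212 (0.811), Zm00001d049975 (0.806) and Zm00001d043986 (0.805). For the closest, Zm00001d048201, the mean level in the successive blocks of 4 slices was 22.2 ± 20.3, 66.9 ± 42.0, 23.8 ± 18.9 and 4.6 ± 1.37 CPM (SD, n = 8). The second, Zm00001d049666, was at 382 ± 185, 599 ± 176, 394 ± 180 and 261 ± 84.0 CPM in the same blocks. All 5 had their highest block mean in slices 5 to 8 and were low in slice 1, at 1.93 to 92.6 CPM. This follows from the choice, since the mean profile is lowest in slice 1 and highest in slice 7 of both roots. That mean also takes in bx1 and bx2, at or next to 0, and bx8, which is highest in slice 10. Likeness to it is thus not likeness to each of the 8 genes. The order among them moves with small choices: Zm00001d031212 was number 19 with a prior count of 0.5 and number 1 with a prior count of 5, and without slice 8 the 5 stood at numbers 3 to 13. The files give no names for these identifiers, and other genes of the pathway outside bx1 to bx8 are not analysed here, since the table of names has none of the identifiers in the counts.

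**Figure D4:**
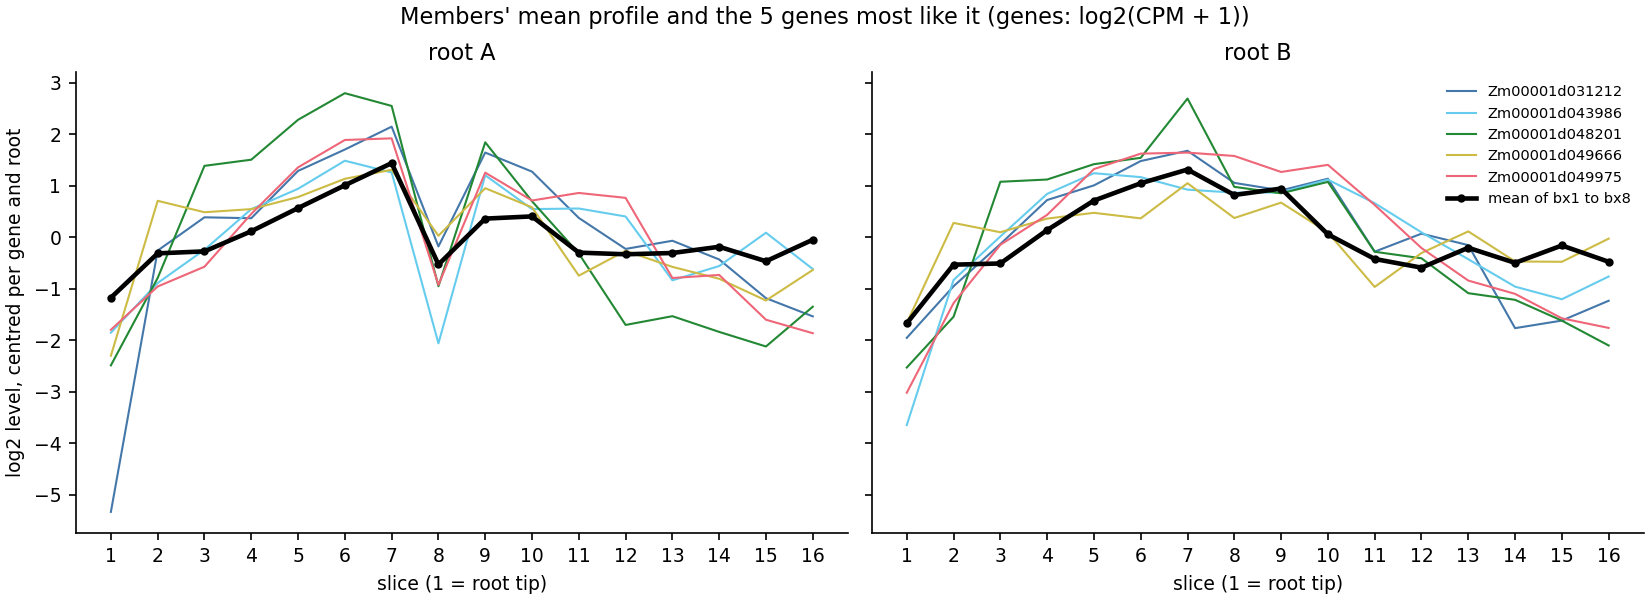
Mean profile of bx1 to bx8 (thick line, log2 CPM centred per gene) and the 5 genes most like it (thin lines, log2(CPM + 1) centred per gene) by slice, for root A (left) and root B (right). The mean profile has its minimum in slice 1 and its maximum in slice 7 in both roots. The 2 libraries of slice 7 were the most alike of any slice. A dip lies in slice 8 of root A, the library with few detected genes.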

How the data were processed

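RNA-seq was made from hand-cut slices with a column kit and an amplifying library kit, per the labels' protocols. The deposited table holds counts per gene identifier, whole numbers with no normalization. The submitters' processing notes name kallisto 0.43, Trimmomatic and DESeq2, with no roles. For genome build, annotation, strand and rounding, the sources used here give nothing. Amplification can raise the spread of low counts, and near-identical genes, such as the P450 genes, can share reads. All 32 columns were matched to samples by name, and 0 columns had none.

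Genes were filtered with filterByExpr (count minimum 10, total minimum 15), which left 19587, and scaled by TMM. The quasi-likelihood test of edgeR 4.0.16 in R 4.3.3 was fitted on all 32 libraries with the 16 slices as groups, with Benjamini-Hochberg adjustment over all genes tested and calls at an adjusted p under 0.05. Root was added to that model for the difference between the roots. For the root difference in the front to back change, the groups were root by block of 4 slices, and the 4 slices of a block stood in as replicates. SE is the log2 change divided by the square root of F. CPM is the count per 1000000 of library total times TMM factor. Alternatives were other scaling, no filter, DESeq2 1.42.0, an older dispersion step, root as a block, blocks of 4 slices as groups, each root alone, slice 7 counted as 1, 3 libraries of low complexity left out, and each library left out. Slice 1 left out of the front was added after the data were seen. The ratio of bx8 to bx7 was not planned either. Scripts were tested on simulated data.

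The 8 genes and the lists were chosen with earlier results of these data known. All 8 are named, and the 5 other genes are those with the highest lower correlation (log2 CPM, prior count 2) with their mean profile, out of genes averaging 10 CPM or more. The labels give the same root letter to the slices cut from a root, so slices pair by root. Over 120 pairs of slices the deviations of root A from the slice mean had a median correlation of 0.143 (−0.02 to 0.376).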

Additional observations from a re-analysis of the deposited data

How the results depend on the processing

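Of 267 results for single genes under settings that left out no single library, 233 kept their direction and their side of the threshold, 25 were no longer called, 3 became called and 6 changed sign. Of the 159 among them that were called in the main fit, 134 stayed called and 25 did not. With 1 library left out, 936 of 950 kept direction and side, and 528 of the 539 called ones did. The joint test has no direction, so only its call was compared. Results that could not be estimated are not counted. Of the 5 genes called as varying between slices, 3 were called in DESeq2 and 3 with the older dispersion step, and 4 to 5 with 1 library left out. In slices 13 to 16 against 1 to 4, where 1 gene was called, 0 were called with library totals or in root A alone, and 2 with the older dispersion step or with slice 1 left out of the front. In slices 5 to 8 against 1 to 4 the count of 3 became 0 in root A alone and 1 to 3 with 1 library left out. In slices 9 to 12 against 5 to 8 the count of 5 became 3 with blocks of 4 slices as groups, 0 in root A alone, 2 in root B alone and 2 to 5 with 1 library left out. In slices 13 to 16 against 9 to 12 the count of 1 became 0 with DESeq2's size factors, in DESeq2, with the older dispersion step, with blocks as groups and in either root alone, and 0 to 1 with 1 library left out. Between the roots 2 genes in place of 1 were called with library totals and without the filter, and 1 to 2 with 1 library left out. Each root alone has fewer libraries by construction, and in root A alone only bx7 and bx8 were tested. The counts of 0 there thus hold no lost call of bx3, bx5 or bx6. Of 15856 genes tested in root A alone, 5588 were called in slices 13 to 16 against 1 to 4. It was 461 in slices 5 to 8 against 1 to 4, 3711 in slices 9 to 12 against 5 to 8 and 419 in slices 13 to 16 against 9 to 12. The cause of the other shifts was not tested.

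Signs changed for bx7 in slices 13 to 16 against 1 to 4, to a log2 change of −0.95 with blocks as groups, −0.79 in root A alone, −1.15 in root B alone and −1.33 with slice 1 left out. They changed for bx8 in slices 5 to 8 against 1 to 4, to −0.57 in root A alone and over −0.53 to 0.61 with 1 library left out, and for bx8 in slices 13 to 16 against 9 to 12, to 0.055 in root B alone. With root as a replicate block, the paired fit called 5 genes as varying, and 1, 3, 5 and 1 in the comparisons of blocks named above and 1 in slice 1 against 2 to 4, as without it; the block changed no call. Leaving out slices 1, 8 and 12 of root A together, the libraries of low complexity, changed no call of a gene that could still be estimated. Depth limits bx1 to bx6: in a single library a count of 0 allows a level of up to 0.652 to 3.59 CPM.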
